A study of Mus musculus with 4 samples.

Results

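Glycolysis and the hypoxia response were examined through 38 genes, which encode the transcription factor HIF-1α and its hydroxylases, glucose and lactate transporters, the enzymes from hexokinase to lactate dehydrogenase, and further targets of HIF-1α. They were chosen by name, and each was read through its brightest probe set, taken as the mean over the 4 arrays. A probe set that the annotation assigns to a single gene was at hand for 34 of the 38 genes, out of 18193 genes on the array. Gpi1, Gapdh, Eno1 and Bnip3l were not analysed here for want of such a probe set. Ero1l appears in the annotation under its current symbol Ero1a.

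The 4 arrays held 1 sample each of CD30high Th17, CD30low Th17, CD30high Th1 and CD30low Th1 cells of the mouse, and asked which transcripts go with surface CD30, a TNF receptor family member, on effector T helper cells. Splenic CD4 T cells were cultured for 6 days either with IL-1β, IL-6 and IL-23 while IFN-γ and IL-4 were blocked by antibodies (Th17) or with IL-12 and IL-2 while IL-4 was blocked (Th1), and the CD30high and CD30low cells of each culture were then separated on a cell sorter. By the methods, naive CD4 T cells with a transgenic receptor for ovalbumin (DO11.10 or OTII) met the peptide on irradiated splenocytes depleted of T cells, and the sources do not say which strain went onto the arrays. The labels give CD62Lhi starting cells for both CD30high samples and CD62Llow starting cells for both CD30low samples, whereas the methods give CD62Lhigh cells throughout, so a difference of starting cells and of CD30 cannot be told apart by the labels.

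With 1 array per group no comparison has a replicate check, and no p-value was computed. A gene was counted as past the fold rule when the ratio of its signals was 2-fold or more and the higher of them reached 300, after raising every signal below 100 to 100. The only error at hand is technical: over 2928 genes with several probe sets, the log2 ratio of 1 probe set had an SD of 0.199 (CD30high over CD30low in Th17 cells), 0.227 (the same in Th1 cells), 0.308 (Th17 over Th1, CD30high cells) and 0.287 (Th17 over Th1, CD30low cells). This SD covers the probe sets and not cultures or mice.

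As background, glycolysis breaks glucose down to pyruvate in the cytosol, and an activated T cell sends much of that pyruvate to lactate even when oxygen is plentiful. HIF-1α is hydroxylated by oxygen-dependent prolyl hydroxylases and then degraded, so that its protein accumulates when oxygen is scarce or when signals of activation raise its synthesis, and with its partner ARNT it switches on most of the genes listed here. In mouse T cells HIF-1α is known to favour the Th17 over the regulatory fate. An array measures its transcript and those of its targets, not the protein and not the flux through the pathway.

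The arrays were alike in the number of bright genes, with 7394 to 7580 genes reaching 300, while the median signal of an array ranged from 62.0 to 86.0. Cd3e (1465 to 2722) and Cd4 (581.8 to 773) were present on all arrays, Ifng was at 76.0 and 106 in Th17 cells against 3423 and 2506 in Th1 cells, and Il17a at 14443 and 1398 in CD30high and CD30low Th17 cells, against 49.4 and 37.7 in CD30high and CD30low Th1 cells. The gene of CD30 itself, Tnfrsf8, was dim, with 132 in CD30high and 34.9 in CD30low Th17 cells and with 51.1 in CD30high and 13.3 in CD30low Th1 cells. Only the first of these reached the floor of 100, so this transcript gives no check of the sort in Th1 cells. Some markers of other cells moved with the groups. Of 5 named neutrophil markers only S100a8 and S100a9 reached 100 on any array (summed signal of the list 1937 in CD30high and 7334 in CD30low Th17 cells, 198 in CD30high and 101 in CD30low Th1 cells), with Elane and Mpo below 100 on all 4. Of 6 fibroblast markers only Lum and Dcn reached 100 (summed 7759 and 1030 in CD30high and CD30low Th17 cells, 287 and 248 in CD30high and CD30low Th1 cells), with Col1a1 and Col1a2 below 100 throughout. The 5 CD8 or NK markers summed to 743 and 1013 in CD30high and CD30low Th17 cells, against 7062 and 9345 in CD30high and CD30low Th1 cells, of which Klrd1 and Klrk1 held most. The Y-linked gene Eif2s3y had 9.4 and 1.4 in Th17 cells, against 1640 and 1784 in Th1 cells, while Xist was bright on all 4 arrays (22613 and 22350 in Th17, 16223 and 14620 in Th1 cells), so the lineages also differ in their sex-linked transcripts and the Th1 samples held both kinds. The part of these differences in the results below was not tested.

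Between CD30high and CD30low cells, no member passed the fold rule in either lineage. In Th17 cells 0 of the 31 members that reached 300 passed, where 7.6% of all 7786 genes did, and in Th1 cells 0 of 32, where 1.28% of 7813 genes did. At a limit of 1.5-fold, Hk2 and Ero1l were higher in CD30high Th17 cells (background 9.52% of all genes) and P4ha1 was lower (9.12%). In Th1 cells Hk2 alone was higher at that limit (4.04%) and no member was lower (3.57%). Hk2 was thus the only member 1.5-fold higher in CD30high cells of both lineages, 1 of 31, beside 1.53% of all genes. On the deposited scale, 27 of 33 members in Th17 cells and 24 of 34 in Th1 cells had a log2 ratio above 0, with medians of 0.14 and 0.11 beside 0.02 and 0.00 for all genes. With the array medians set equal the counts above 0 were 22 of 33 in Th17 cells and 12 of 33 in Th1 cells. That scaling also moved the median of all genes to -0.03 in Th17 and -0.23 in Th1 cells, beside 0.09 and -0.13 for the members. The sign of the Th1 lean thus turns with the scaling. Setting the medians equal shifts members and all genes nearly alike. The place of the members' median above that of all genes is thus kept by construction and is no check. As deposited, 20 of 33 members (60.6%) were above 0 in both lineages and 3 below, where 29.6% of all genes were above 0 in both and 29.6% below, and these CD30 comparisons share no array.

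Between lineages, Hk2 and Pfkl were the members that passed the 2-fold rule, both higher in Th17 cells and both in each CD30 gate. Among CD30high cells they were 2 of 31 members (background 4.98% of all genes higher), with none lower (6.86%). Among CD30low cells they were 2 of 32 (3.53%), again with none lower (5.83%). In both gates together they were 2 of 31, beside 1.7% of all genes that were higher and 3.73% that were lower. At 1.5-fold, 7 of 31 members (22.6%) were higher in CD30high Th17 cells than in CD30high Th1 cells, beside 13.6% of all genes, and none was lower, beside 14.9%. Among CD30low cells the same limit gave 8 of 32 members higher (25%, background 11.7%) and Aldoc alone lower (background 13.3%). Hk1, Hk2, Pfkl, Eno2, Pkm and Bnip3 were at least 1.5-fold higher in both gates, which is 19.4% of 31 members beside 5.43% of all genes, and no member was lower in both, beside 8.35%. The members' median log2 ratio of Th17 over Th1 was 0.28 among CD30high cells and 0.16 among CD30low cells, beside -0.01 and -0.02 for all genes, and the lineage comparisons share no array with each other, though each shares its arrays with the CD30 comparisons.

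**Figure D1:**
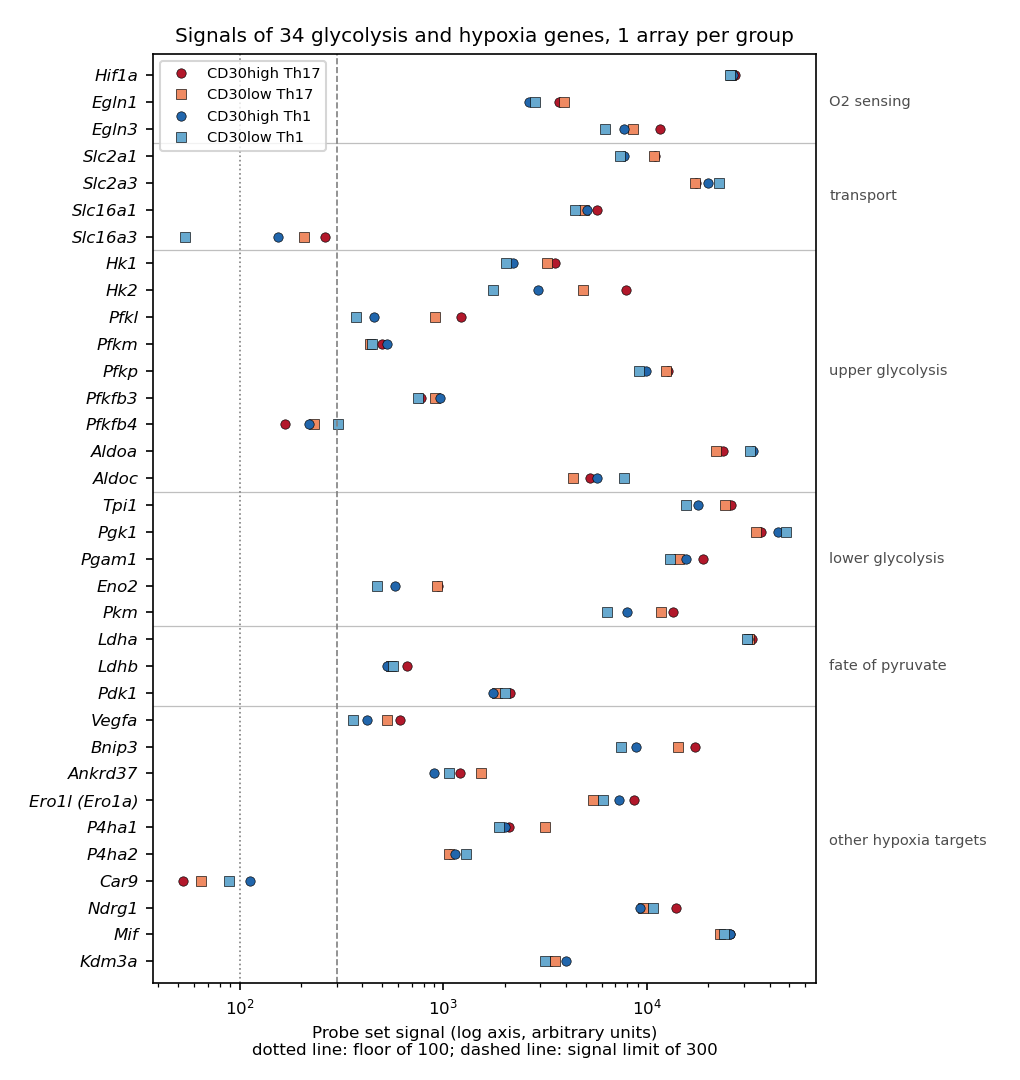
Signals of the 34 measured members on the 4 arrays (horizontal log axis, arbitrary units), 1 point per array, with genes in rows ordered by role. Hk2 had 7922, 4865, 2923 and 1753 in CD30high Th17, CD30low Th17, CD30high Th1 and CD30low Th1 cells, while the 4 points of Hif1a and of Ldha nearly coincide.

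A fixed order of the 4 arrays recurred among the members, with CD30high Th17 highest, then CD30low Th17, then CD30high Th1, and CD30low Th1 lowest. Counting this order was not planned. It combines the lineage and CD30 directions given above on the same arrays and is no separate support for them. It was seen in 12 of the 32 members that reached 300 on any array (37.5%), beside 11.5% of 8227 genes. The 12 were Slc2a1, Hk1, Hk2, Pfkl, Pfkp, Tpi1, Eno2, Pkm, Ldha, Vegfa, Bnip3 and Egln3, and in several of them neighbouring arrays differed by less than the technical SD. With the array medians set equal 8 members had this order (25.8%, all genes 8.16%), of which Hk2, Pfkl, Pkm, Bnip3 and Egln3 are among the 12, and with quantile normalization 13 had it (40.6%, all genes 12.2%), 11 of them among the 12.

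Glucose enters the T cell through the transporters GLUT1 and GLUT3, encoded by Slc2a1 and Slc2a3, and the lineage ratios of their brightest probe sets had opposite signs. Slc2a1 had signals of 10980 and 10803 in CD30high and CD30low Th17 cells and 7673 and 7354 in CD30high and CD30low Th1 cells. Its log2 ratio of Th17 over Th1 was 0.52 among CD30high and 0.55 among CD30low cells, and the other probe sets of the gene gave 0.83 and 0.45 among CD30high cells and 0.78 and 0.53 among CD30low cells. Slc2a3 had 17342 and 17212 in CD30high and CD30low Th17 cells and 19913 and 22519 in CD30high and CD30low Th1 cells, a log2 ratio of -0.20 and -0.39 in the CD30high and CD30low gates, of which that among CD30high cells changed sign with the array medians set equal. A second bright probe set of Slc2a3 gave -0.04 in both gates. CD30 made little difference to either (log2 ratios of 0.02 and 0.01 in Th17 and 0.06 and -0.18 in Th1 cells). Of the lactate transporters, Slc16a1 (MCT1) was slightly higher with CD30 in both lineages (0.22 in Th17, 0.20 in Th1, the Th1 value falling below 0 with the medians set equal), with signals of 5696, 4899, 5102 and 4449 in CD30high Th17, CD30low Th17, CD30high Th1 and CD30low Th1 cells. Slc16a3 (MCT4), the exporter typical of glycolytic cells, stayed below 300 on every array at 262, 207, 155 and 54.2 in the same order, so it could not be counted.

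Hk2, the hexokinase isoform induced in activated lymphocytes, traps glucose as glucose phosphate and had a range of 4.52-fold over the arrays, larger than that of any other member that reached 300. Its signals were 7922 in CD30high and 4865 in CD30low Th17 cells, and 2923 in CD30high and 1753 in CD30low Th1 cells. The Th17 arrays were both above the Th1 arrays and the CD30high array was above the CD30low array in each lineage. CD30high cells had 1.63-fold the signal of CD30low cells among Th17 cells (log2 0.70) and 1.67-fold among Th1 cells (log2 0.74), and Th17 cells had 2.71-fold that of Th1 cells among CD30high cells (log2 1.44) and 2.78-fold among CD30low cells (log2 1.47). The CD30 ratio in Th17 cells minus that in Th1 cells was -0.03 on the log2 scale, well inside the technical SD. Both CD30 ratios stayed above 0 with the array medians set equal (0.65 in Th17, 0.50 in Th1 cells) and with quantile normalization (0.72 and 0.77). Hk2 rests on 1 probe set. The constitutive isoform Hk1 had 3550 and 3224 in CD30high and CD30low Th17 cells and 2198 and 2032 in CD30high and CD30low Th1 cells. It thus differed with lineage (log2 0.69 in CD30high, 0.67 in CD30low cells) and hardly with CD30 (0.14 in Th17, 0.11 in Th1 cells, the Th1 value below 0 with the medians set equal).

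Hk2 and Pfkl, the members past the 2-fold rule, both carry the core of the hypoxia response element upstream of their annotated start, and these stretches are shown because HIF-1α binds such a core. RefSeq (GRCm38.p6) places the Hk2 stretch at chr6:82774455-82774704 and the Pfkl stretch at chr10:78009808-78010057, both on the minus strand and both the 250 bases just before the start, outside the transcript. Capitals mark the cores ACGTG or GCGTG, where CACGT is ACGTG read on the other strand.
Hk2: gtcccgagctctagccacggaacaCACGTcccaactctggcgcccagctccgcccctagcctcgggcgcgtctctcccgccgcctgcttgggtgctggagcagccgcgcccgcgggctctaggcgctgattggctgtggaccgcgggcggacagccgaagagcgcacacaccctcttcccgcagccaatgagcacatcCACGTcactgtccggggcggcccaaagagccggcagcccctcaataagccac
Pfkl: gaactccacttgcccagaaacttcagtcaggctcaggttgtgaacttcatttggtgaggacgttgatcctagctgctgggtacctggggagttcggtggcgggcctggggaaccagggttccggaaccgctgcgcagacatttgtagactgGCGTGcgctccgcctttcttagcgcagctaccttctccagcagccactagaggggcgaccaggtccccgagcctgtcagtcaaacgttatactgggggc
The Hk2 cores lie 226 to 222 and 52 to 48 bases before the start, both on the opposite strand, and the Pfkl core is a GCGTG on the gene's strand 99 to 95 bases before it. Over the window from 250 bases before to 50 after a start, a core on either strand was found in at least 1 window of 32 of the 35 members with a window in the table (91.4%), beside 46.7% of 27025 genes, and in 21 of the 24 members with a single window, beside 43.1% of 22862 such genes. Of 47 ACGTG matches on both strands of the members' windows, 14 lay inside the E-box CACGTG, which MYC and its relatives bind. The E-box reads alike on both strands, so each such site was counted on each strand. The members' windows were also richer in G and C (median 62%, all windows 52.7%) and in CG dinucleotides (median 20, all windows 7), which both cores contain. Tpi1, Eno2 and Gpi1 had neither core in their windows. A match is a description of the letters, and nothing on these arrays shows binding.

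Phosphofructokinase, the committed step of glycolysis, is built from 3 subunit types. The liver-type subunit Pfkl had 1216 and 914 in CD30high and CD30low Th17 cells, and 456 and 371 in CD30high and CD30low Th1 cells. Both Th17 arrays were above both Th1 arrays, 2.67-fold among CD30high cells (log2 1.41) and 2.46-fold among CD30low cells (log2 1.30), while its CD30 ratios were 0.41 in Th17 and 0.30 in Th1 cells. Other probe sets of Pfkl did not give the same picture. One had 664 and 509 in CD30high and CD30low Th17 cells and 440 and 273 in CD30high and CD30low Th1 cells, with lineage log2 ratios of 0.59 and 0.90 in the CD30high and CD30low gates, and another, with 269 and 231 in Th17 and 374 and 294 in Th1 cells, ran the other way (-0.47 and -0.35). With the mean over its probe sets Pfkl no longer passed the rule (0.51 among CD30high, 0.62 among CD30low cells). The platelet-type subunit Pfkp, with 12699 and 12380 in CD30high and CD30low Th17 cells and 9845 and 9166 in CD30high and CD30low Th1 cells, had smaller lineage ratios (0.37 and 0.43). Its dimmer probe sets gave -0.05 and 0.01 among CD30high and -0.45 and 0.24 among CD30low cells. With the mean over its probe sets Pfkp was at 0.11 and 0.07. The muscle-type subunit Pfkm stayed between 438 and 529 on all 4 arrays.

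The bifunctional enzymes that set the level of the allosteric activator of phosphofructokinase, Pfkfb3 and Pfkfb4, did not share this pattern. Pfkfb3 had 775 in CD30high and 912 in CD30low Th17 cells, but 966 in CD30high and 751 in CD30low Th1 cells, so that its CD30 log2 ratio was -0.24 in Th17 and 0.36 in Th1 cells. Pfkfb4 was dim at 167 and 231 in CD30high and CD30low Th17 cells and at 220 and 305 in CD30high and CD30low Th1 cells, with a CD30 log2 ratio of -0.47 in both lineages.

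Aldolase, which splits the phosphorylated sugar, was a step at which Th17 cells had less signal than Th1 cells. Aldoa had 23607 and 21792 in CD30high and CD30low Th17 cells and 33325 and 32045 in CD30high and CD30low Th1 cells, a log2 ratio of -0.50 and -0.56 in the CD30high and CD30low gates. All 5 probe sets of Aldoa lay below 0 in both gates, between -0.78 and -0.09. Aldoc had 5227 and 4356 in CD30high and CD30low Th17 cells, and 5715 and 7719 in CD30high and CD30low Th1 cells. It was lower in Th17 cells by 1.77-fold in the CD30low gate (log2 -0.83) and differed little in the CD30high gate (-0.13, above 0 with the medians set equal). A second probe set of Aldoc had 248 and 312 in Th17 and 855 and 1028 in Th1 cells, which is past the 2-fold rule in both gates (log2 -1.79 in CD30high and -1.72 in CD30low cells).

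**Figure D2:**
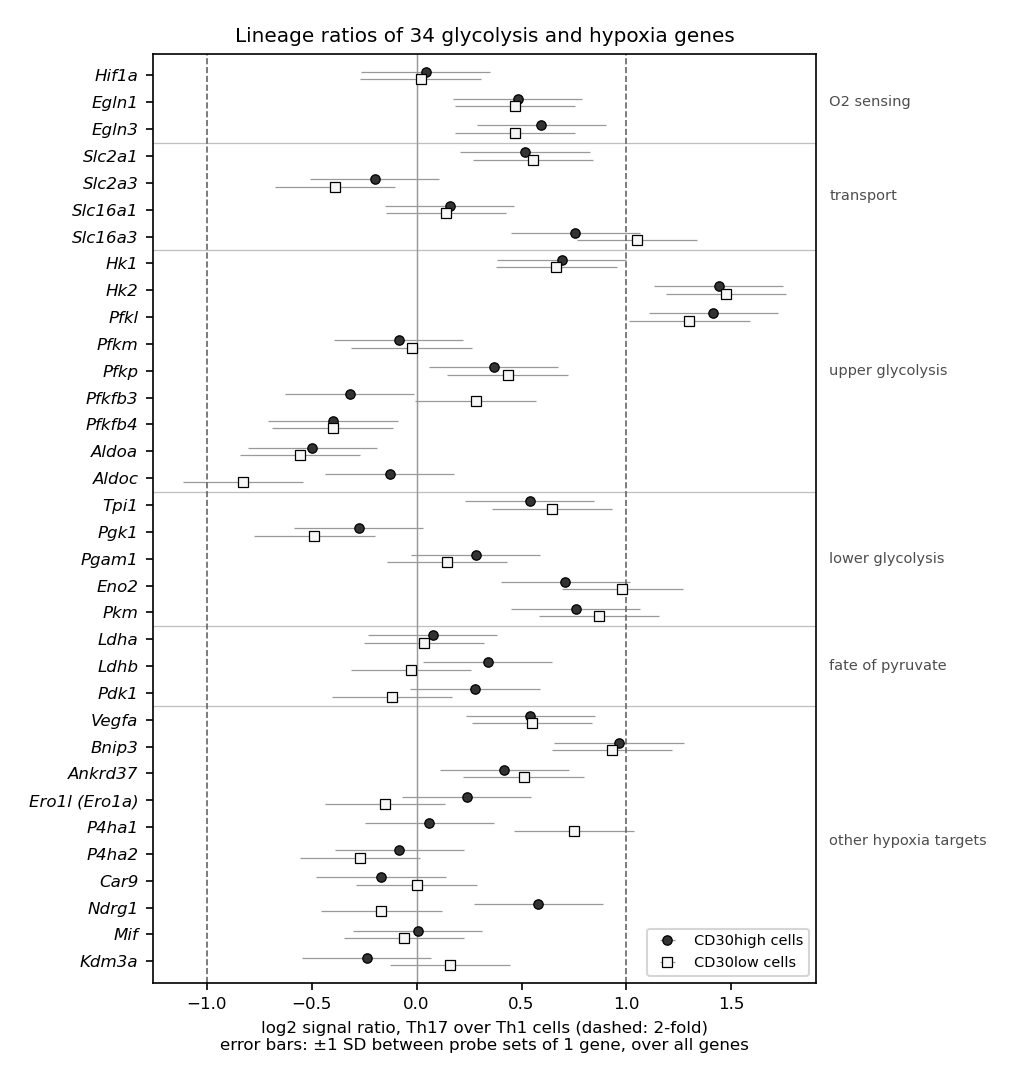
Log2 signal ratio of Th17 over Th1 cells for the 34 measured members (horizontal axis, rows ordered by role), with filled circles for CD30high and open squares for CD30low cells and bars of ±1 SD between probe sets of a gene (0.308 and 0.287). Hk2 and Pfkl lie past the dashed 2-fold line in both gates. Of 33 members, 19 lie above 0 in both gates (57.6%, all genes 35.3%). Aldoa, Slc2a3 and Pgk1 are among the 7 below 0 in both (21.2%, all genes 37.2%).

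In the lower part of glycolysis, 4 of the 5 measured members had more signal in Th17 cells in both gates, with a median log2 ratio of 0.54 among CD30high and 0.64 among CD30low cells. Pkm, pyruvate kinase, had 13489 and 11687 in CD30high and CD30low Th17 cells and 7972 and 6397 in CD30high and CD30low Th1 cells (log2 0.76 in the CD30high and 0.87 in the CD30low gate). Eno2, an enolase named for its expression in neurons, had 947 and 932 in CD30high and CD30low Th17 cells and 580 and 472 in CD30high and CD30low Th1 cells (0.71 and 0.98). Eno2 among CD30low cells, at 1.97-fold, lay just under the 2-fold limit. Tpi1, triose phosphate isomerase, had 25990 and 24182 in CD30high and CD30low Th17 cells and 17895 and 15473 in CD30high and CD30low Th1 cells (0.54 and 0.64), and its other 2 probe sets gave 0.55 and 0.78 among CD30high cells and 0.67 and 0.67 among CD30low cells. The mutase gene Pgam1, with 18945 and 14376 in CD30high and CD30low Th17 cells and 15585 and 13013 in CD30high and CD30low Th1 cells, had a CD30 log2 ratio of 0.40 in Th17 and 0.26 in Th1 cells and lineage ratios of 0.28 and 0.14. Pgk1, the first step that yields ATP, was the exception. It had 36270 and 34300 in CD30high and CD30low Th17 cells and 43900 and 48063 in CD30high and CD30low Th1 cells (-0.28 and -0.49), but it was at 0.10 and 0.01 with quantile normalization, so its direction depends on the scaling. The CD30 log2 ratio of Pkm was 0.21 in Th17 and 0.32 in Th1 cells, and that of Eno2 was 0.02 and 0.30.

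At the fate of pyruvate the brightest probe sets differed by at most 1.26-fold over the arrays. Ldha, which turns pyruvate into lactate, had 32927 and 31588 in CD30high and CD30low Th17 cells and 31217 and 30814 in CD30high and CD30low Th1 cells, a range of 1.07-fold over all 4, while with quantile normalization its lineage log2 ratio was 0.39 among CD30high and 0.48 among CD30low cells. By these probe sets Ldhb (528 to 667) and the pyruvate dehydrogenase kinase gene Pdk1 (1748 to 2120) were both highest in CD30high Th17 cells. Their CD30 log2 ratios were 0.27 and 0.20 in Th17 cells and -0.10 and -0.19 in Th1 cells. The other 3 probe sets of Ldhb gave CD30 ratios of 0.15, 0.38 and 0.59 in Th17 cells. In Th1 cells they gave -0.11, 0.10 and 0.28. One dimmer probe set of Pdk1 gave 0.25 in Th17 and -0.10 in Th1 cells, and another gave -0.005 and 0.03. The signs in Th1 cells thus differ between probe sets. The brightest probe set of Ldhb had lineage log2 ratios of 0.34 among CD30high and -0.03 among CD30low cells, and its other 3 gave 0.90, 0.71 and 0.61 among CD30high and 0.64, 0.43 and 0.29 among CD30low cells, all higher in Th17 cells.

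Of the oxygen-sensing genes, Hif1a itself gave different answers from different probe sets. The brightest had 27166 and 25777 in CD30high and CD30low Th17 cells and 26357 and 25436 in CD30high and CD30low Th1 cells, a range of 1.07-fold. A second had 9940 and 8193 in CD30high and CD30low Th17 cells and 5733 and 5364 in CD30high and CD30low Th1 cells, and a further one had 3004 and 2290 in the Th17 and 1307 and 1104 in the Th1 cells. Their lineage log2 ratios were 0.04, 0.79 and 1.20 among CD30high cells and 0.02, 0.61 and 1.05 among CD30low cells, so the dimmest of these was past the 2-fold rule in both gates while the brightest was near 0. All 3 had positive CD30 ratios, between 0.08 and 0.39 in Th17 cells and between 0.05 and 0.24 in Th1 cells, and a dim probe set with 371 and 262 in CD30high and CD30low Th17 cells and 318 and 167 in CD30high and CD30low Th1 cells gave 0.50 and 0.93. The hydroxylase genes among the members are Egln3 and Egln1, whose products mark HIF-1α for degradation and which HIF-1α in turn induces. Both were brighter in Th17 cells. Egln3 had 11652 and 8584 in CD30high and CD30low Th17 cells and 7714 and 6208 in CD30high and CD30low Th1 cells (log2 0.59 and 0.47 in the CD30high and CD30low gates). Egln1 had 3686 and 3903 in CD30high and CD30low Th17 cells and 2641 and 2820 in CD30high and CD30low Th1 cells (0.48 and 0.47). Egln2, a hydroxylase gene outside the members, was not brighter in Th17 cells. It had 994 and 1060 in CD30high and CD30low Th17 cells and 1121 and 1078 in CD30high and CD30low Th1 cells (-0.17 and -0.02). Egln3 was also higher in CD30high cells of both lineages (0.44 in Th17, 0.31 in Th1), whereas the probe sets of Egln1 differed in sign, with -0.08 and -0.09 for the brightest and 0.45 and 0.62 for a second one (2136 in CD30high and 1568 in CD30low Th17 cells, 1604 in CD30high and 1043 in CD30low Th1 cells). With the mean of its probe sets Egln1 had CD30 log2 ratios of 0.18 in Th17 and 0.26 in Th1 cells.

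**Figure D3:**
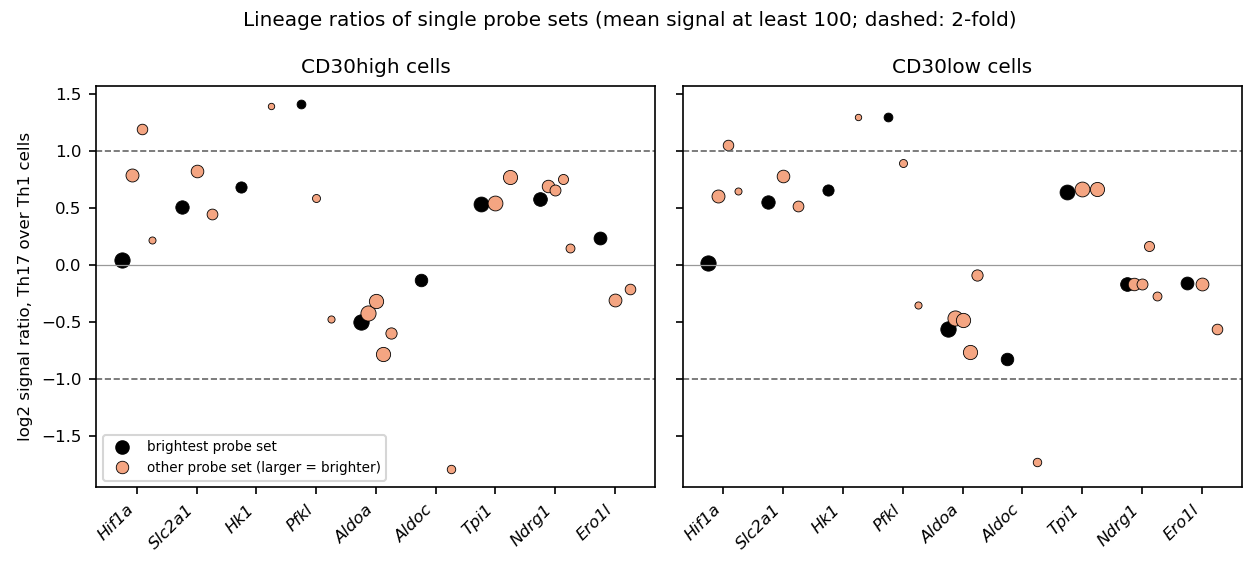
Log2 signal ratio of Th17 over Th1 cells for each probe set (mean signal of at least 100) of 9 members, in CD30high cells (left) and CD30low cells (right), with the brightest probe set in black and the others in orange, larger points being brighter. The probe sets of Hif1a spread between 0.04 and 1.20 in CD30high cells and those of Pfkl fall on both sides of 0, while those of Slc2a1 and Tpi1 lie together.

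Over the members with several probe sets of mean signal 300 or more, which were 16, the probe sets shared 1 sign in 12 members for CD30 in Th17 cells and in 7 for CD30 in Th1 cells, in 13 for lineage among CD30high cells and in 12 for lineage among CD30low cells. A further 15 members had 1 such probe set.

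The remaining targets of HIF-1α differed among themselves. Bnip3, a receptor for the removal of mitochondria, had 17179 and 14192 in CD30high and CD30low Th17 cells and 8803 and 7441 in CD30high and CD30low Th1 cells. It was 1.95-fold and 1.91-fold higher in Th17 cells in the CD30high and CD30low gates (log2 0.96 and 0.93) and somewhat higher with CD30 (0.28 in Th17, 0.24 in Th1). Vegfa, the angiogenic growth factor, had 617 and 530 in CD30high and CD30low Th17 cells and 423 and 362 in CD30high and CD30low Th1 cells (lineage log2 0.54 and 0.55), and Ankrd37 had 1202 and 1527 in CD30high and CD30low Th17 cells and 899 and 1072 in CD30high and CD30low Th1 cells (0.42 and 0.51). By their brightest probe sets these 3 genes thus had more signal on both Th17 arrays, but Ankrd37 was lower with CD30 (-0.35 in Th17, -0.25 in Th1). A dim second probe set of Vegfa, near the floor, had lineage log2 ratios of -0.58 among CD30high and 0.32 among CD30low cells. Mif, a cytokine gene, stayed between 22921 and 25587, and the collagen prolyl hydroxylase P4ha2 between 1072 and 1293. Kdm3a, a histone demethylase, had its highest signal in CD30high Th1 cells (3991, against 3168 in CD30low Th1 cells) and differed little in Th17 cells (3388 and 3535). Car9, the carbonic anhydrase often used as a marker of hypoxia, was at 52.9 and 64.5 in CD30high and CD30low Th17 cells and 112 and 88.8 in CD30high and CD30low Th1 cells, near or below the floor of 100 on every array.

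Ero1l, the oxidase of disulfide formation in the endoplasmic reticulum, and Ndrg1, a stress-response gene, were among the members with the largest CD30 ratios in Th17 cells. Ero1l had 8637 in CD30high and 5462 in CD30low Th17 cells, 1.58-fold (log2 0.66), and 7316 in CD30high and 6065 in CD30low Th1 cells (0.27). All 3 of its probe sets had positive CD30 ratios, between 0.60 and 0.66 in Th17 and between 0.27 and 0.74 in Th1 cells. Ndrg1 had 13882 in CD30high and 9562 in CD30low Th17 cells (0.54), but 9284 in CD30high and 10737 in CD30low Th1 cells (-0.21). All 5 probe sets of Ndrg1 were higher in CD30high Th17 cells, by 0.38 to 0.77 on the log2 scale, while in Th1 cells they lay between -0.21 and 0.19. P4ha1, a collagen prolyl hydroxylase gene like P4ha2, ran the other way in Th17 cells, with 2108 in CD30high and 3170 in CD30low cells (-0.59). It had 2021 and 1885 in CD30high and CD30low Th1 cells (0.10). Its second probe set gave -0.79 in Th17 and -0.28 in Th1 cells. In bulk RNA, fewer cells of a kind and less RNA per cell cannot be told apart, and the neutrophil and fibroblast markers that differ between these Th17 samples are given above.

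The CD30 ratios of 10 of 33 members had opposite signs in Th17 and Th1 cells. Of all genes, 3874 of 9509 were neither above 0 in both lineages nor below 0 in both. Ndrg1 (0.75), Aldoc (0.70), P4ha1 (-0.69) and Pfkfb3 (-0.60) differed by 1.5-fold or more when the Th1 log2 ratio was taken from that in Th17 cells, 4 of 32 members (12.5%), beside 20.8% of 8227 genes. The median of this difference was 0.02 over the members and 0.02 over all genes. For Aldoc and P4ha1 this rests on 1 probe set: the second probe set of Aldoc had CD30 log2 ratios of -0.33 in Th17 and -0.26 in Th1 cells, and that of P4ha1, given above, was likewise below 0 in both lineages. The Th1 ratio of P4ha1 was also below 0 with the medians set equal (-0.13). Pfkfb3 too rests on 1 probe set, as its other probe set was below 100 on all arrays. A dimmer probe set of Ndrg1 was above 0 in both lineages (0.77 in Th17, 0.19 in Th1 cells). The differences between lineages were not tested.

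**Figure D4:**
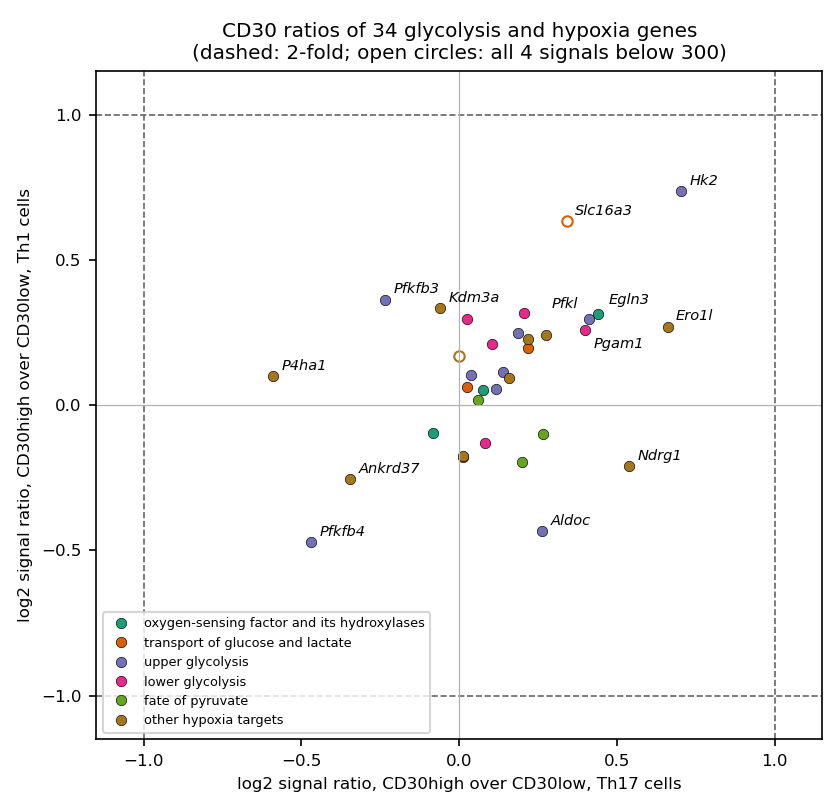
Log2 signal ratio of CD30high over CD30low cells in Th17 cells (horizontal axis) and in Th1 cells (vertical axis) for the 34 measured members, 1 point per gene coloured by role, with open circles for genes below 300 on all arrays. Hk2 lies at 0.70 and 0.74, Ero1l at 0.66 and 0.27, and no point crosses the dashed 2-fold lines.

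Some properties of the arrays touch the signs of small ratios. First, the medians of the arrays differ, and setting them equal moved the median log2 ratio of all genes to -0.03 and -0.23 for CD30 in Th17 and Th1 cells and to 0.40 and 0.21 for lineage among CD30high and CD30low cells. The members' median was then 0.09 and -0.13 for CD30 in Th17 and Th1 cells. For lineage it was 0.70 and 0.40 among CD30high and CD30low cells. These medians lay above those of all genes in each of the 4 comparisons. That order is kept by construction, as this scaling moves members and all genes nearly alike. Of all genes, 298 were then at least 2-fold higher and 328 lower with CD30 in Th17 cells (307 and 285 as deposited), 25 and 118 in Th1 cells (62 and 38), 1124 and 288 in Th17 against Th1 cells of the CD30high gate (397 and 547) and 558 and 300 in those of the CD30low gate (277 and 458). The sign of a member's ratio was the same under the deposited scaling, equal medians and quantile normalization for 28 of 33 members in Th17 cells and 22 of 34 in Th1 cells for CD30, and for 24 of 34 and 26 of 33 for lineage among CD30high and CD30low cells.

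Second, the brightest genes as a class had less signal in Th17 cells. Of 134 genes whose mean signal reached 20000, 85.8% had a log2 ratio of Th17 over Th1 below 0 in the CD30high gate and as many in the CD30low gate, with medians of -0.31 and -0.43. Hif1a, Aldoa, Tpi1, Pgk1, Ldha and Mif are members of this class and had medians of 0.02 and -0.02. Aldoa and Pgk1 thus lay close to the class median, and Hif1a, Ldha, Mif and Tpi1 above it. With quantile normalization, which gives every array the same distribution, the lineage log2 ratio was 0.39 and 0.48 for Ldha, 0.29 and 0.36 for Hif1a, 0.74 and 0.91 for Tpi1 and -0.24 and -0.22 for Aldoa in the CD30high and CD30low gates. The signal classes were chosen after the values had been seen.

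**Figure D5:**
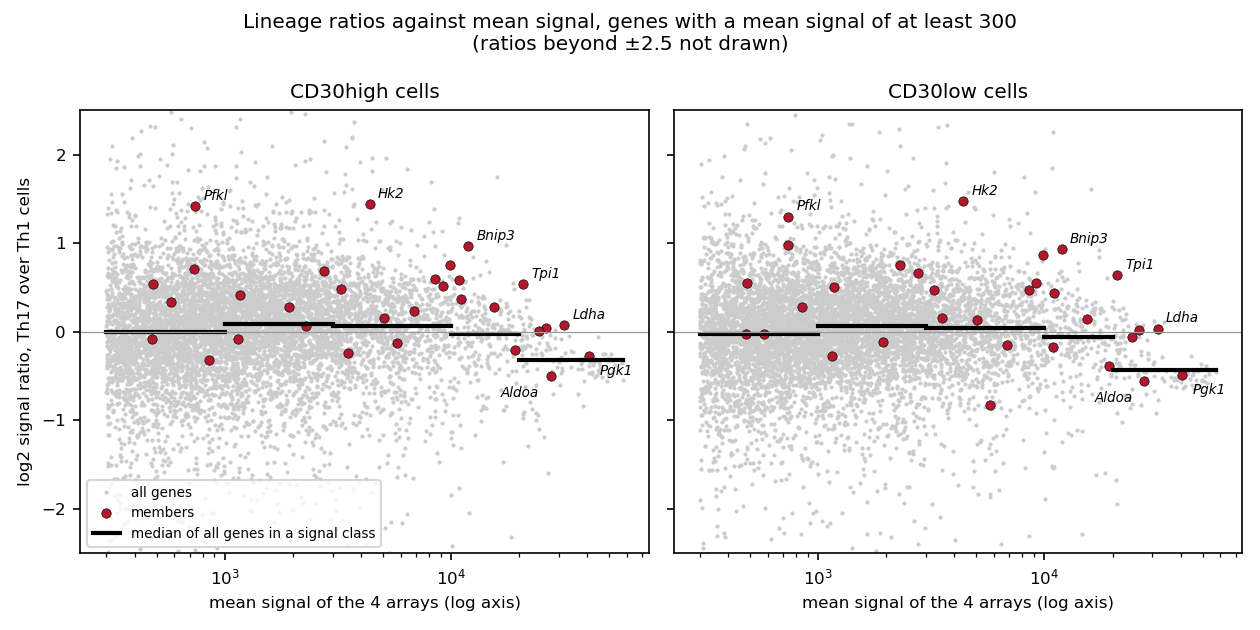
Log2 signal ratio of Th17 over Th1 cells (vertical axis) against the mean signal of the 4 arrays (horizontal log axis) for all genes whose mean reached 300 (grey) and for the members among them (red), in CD30high cells (left) and CD30low cells (right), with black bars for the median of all genes in 5 signal classes and with 104 and 84 of 7560 genes beyond the axis limit of 2.5 not drawn. The bar of the brightest class lies at -0.31 and -0.43, with Aldoa and Pgk1 near it and Hk2 and Pfkl far above those of their classes.

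Neighbouring pathway lists differed in how many genes passed the 2-fold rule, and some of their genes had larger CD30 ratios than any member. In the list of other glycolysis and transport genes (23 of 26 named), Gpd2, the mitochondrial dehydrogenase of the glycerol phosphate shuttle, had 3167 in CD30high and 762 in CD30low Th17 cells (log2 2.06) and 1012 in CD30high and 462 in CD30low Th1 cells (1.13). It was the only gene of that list past the rule for CD30 in either lineage, of 10 reaching 300 in Th17 and 11 in Th1 cells (10% and 9.09%, all genes 7.6% and 1.28%). For lineage, 2 of 12 were higher in CD30high Th17 cells (Gpd2 and the hexose transporter Slc2a6, 16.7%, all genes 4.98%). Among CD30low cells 1 of 11 was higher in Th17 cells (Slc2a6, 9.09%, all genes 3.53%). In that gate 2 were lower (Slc16a6 and Galm, 18.2%, all genes 5.83%). Slc2a6 had 319 and 305 in CD30high and CD30low Th17 cells and 28.4 and 30.4 in CD30high and CD30low Th1 cells, at least 3.19-fold and at least 3.05-fold higher in Th17 cells. None of 9 genes of pyruvate entry into mitochondria reaching 300 in Th17 cells and none of 6 pentose phosphate genes passed in any comparison.

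In the HIF machinery none of 10 genes in Th17 and 11 in Th1 cells passed for CD30 (all genes 7.6% and 1.28%). For lineage, 2 of 11 were lower in CD30high Th17 cells (Epas1 and Cited2, 18.2%, all genes 6.86%). Among CD30low cells 1 of 11 was lower in Th17 cells (Epas1, 9.09%, all genes 5.83%). Epas1, which encodes HIF-2α, had 3.3 and 148 in CD30high and CD30low Th17 cells and 352 and 455 in CD30high and CD30low Th1 cells. Among other targets of HIF-1α, 4 of 25 passed for CD30 in Th17 cells (16%, all genes 7.6%) and 2 of 24 in Th1 cells (8.33%, all genes 1.28%), all higher in CD30high cells. Selenbp1 had the largest of these ratios in Th17 cells, with 1407 in CD30high and 306 in CD30low Th17 cells (2.20) and 1514 in CD30high and 727 in CD30low Th1 cells (1.06). For lineage that list had 6 higher and 2 lower of 25 among CD30high cells (24% and 8%, all genes 4.98% and 6.86%) and 4 higher and 2 lower of 24 among CD30low cells (16.7% and 8.33%, all genes 3.53% and 5.83%), with the transferrin receptor gene Tfrc (1.23 and 1.84) and the AP-1 factor Fosl2 (1.51 and 1.65) higher in Th17 cells and the glycogen phosphorylase gene Pygl lower (-1.55 and -1.16). Of 11 upstream regulators of T cell glycolysis, Mycn and Irf4 passed for CD30 in Th17 cells (log2 3.38 and 1.38). That is 18.2% of the list beside 7.6% of all genes. In Th1 cells Mycn alone passed (1.01), 9.09% of the list beside 1.28% of all genes. Irf4 was higher in Th17 than in Th1 cells of both gates (2.09 among CD30high, 1.03 among CD30low cells). Myc was past the rule for lineage in the CD30low gate only (1.04, against 0.86 in the CD30high gate), a difference between gates that was not tested, and Mycn was higher in Th17 cells of the CD30high gate (1.14) but lower in those of the CD30low gate (-1.23).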

How the data were processed

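RNA of each sample was labelled and hybridised by the study to 1 short-oligonucleotide expression array per group, and the authors deposited linear signal intensity values, 1 per probe set, made with the array maker's software (named GCOS in the methods and Affymetrix Expression Console in the submitters' notes). The summary algorithm is not given in the sources used here. Means without the lowest and highest 2% of values were 496.6 to 497.0 on the 4 arrays, and signals near 0 occur, so low ratios are compressed by the floor of 100. Precision is limited by having so few arrays.

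Of 45037 probe sets, 34945 have 1 gene symbol in the platform annotation (34741 updated through their gene identifiers), 932 have several and 9160 are unnamed here. Log2 ratios were taken on the deposited scale (Python 3.11.15, numpy 2.4.6, pandas 2.3.3). The members and lists were chosen with earlier results of these data known. Every member may be named, and of each pathway list up to 4 genes past the rule in any comparison, those with the largest absolute ratio. Egln2, which did not pass it, is named beside the other hydroxylase genes. The fold rule was run on simulated data for CD30 in Th1 cells (18193 genes), where it recovered 100 of 100 genes changed 3-fold and 4 of 100 changed 1.5-fold. The only noise there was the technical SD of 0.227. Cultures and mice did not vary, so these counts check the working of the rule and not its error on real samples. Alternatives were equal array medians, quantile normalization, floors of 50 and 200, the mean of a gene's probe sets, a 1.5-fold limit and a signal limit of 100. Promoter windows came from RefSeq (GRCm38.p6).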

Additional observations from a re-analysis of the deposited data

Results flagged for a closer look

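The CD30 log2 ratio of 4 members had opposite signs in Th17 and Th1 cells and differed by 1.5-fold or more (Th17 minus Th1): Ndrg1 by 0.75, Aldoc by 0.70, P4ha1 by -0.69 and Pfkfb3 by -0.60. In a second probe set of Aldoc (-0.33 in Th17, -0.26 in Th1 cells) and of P4ha1 (-0.79 and -0.28) the signs were not opposite. Nor were they in a dimmer probe set of Ndrg1 (0.77 and 0.19). The other probe set of Pfkfb3 was below 100 on all arrays. These differences were not tested.

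Probe sets that the comparisons did not use gave ratios past the 2-fold rule where the brightest probe set of the gene did not. A probe set of Hif1a gave a log2 ratio of Th17 over Th1 of 1.20 among CD30high and 1.05 among CD30low cells. A probe set of Aldoc gave -1.79 among CD30high and -1.72 among CD30low cells. A probe set of Hk1 gave 1.40 among CD30high cells, with signals of 342 in Th17 and 129 in Th1 cells.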

How the results depend on the processing

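A 1.5-fold limit gave 3 members for CD30 in Th17 cells and 1 in Th1 cells, and 7 and 9 for lineage among CD30high and CD30low cells. Equal array medians gave 7 and 5 for lineage in those gates, adding Eno2, Pkm and Bnip3 in both and Hk1 and Egln3 among CD30high cells. All genes at least 2-fold higher in Th17 cells also rose in number with that scaling. They went from 397 to 1124 among CD30high and from 277 to 558 among CD30low cells. The other alternatives kept every count within 1.5 times, though with the mean of probe sets the genes changed: Pfkl was under the limit (0.51 among CD30high, 0.62 among CD30low cells), Hk1 was past it among CD30high cells (1.05) and Aldoc among CD30low cells (-1.27). Quantile normalization added Bnip3 among CD30high cells (1.05).

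The members' median moved by over 0.1 with equal array medians to -0.13 for CD30 in Th1 cells and to 0.70 and 0.40 for lineage among CD30high and CD30low cells, with quantile normalization to 0.40 and 0.36 for lineage in the same gates, and with the mean of probe sets to 0.28 among CD30low cells. Of the single ratios of the 34 members in the 4 comparisons, 59 moved by more than the technical SD with equal array medians without crossing the rule, 14 with the mean of probe sets, 7 with quantile normalization, and 5 and 4 with floors of 50 and 200, and no ratio past the rule changed sign under these settings. Beyond the movement that each rescaling makes by construction, the cause was not tested. No paired analysis was possible because each group has 1 array.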
